A study of Homo sapiens with 12 samples.

Results

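The MYC, MAX and MXD network is a family of 9 genes that encode basic helix-loop-helix leucine zipper proteins: MYC, MYCN, MAX, MXD1, MXI1, MXD3, MXD4, MNT and MGA. They were taken by gene symbol from the table of raw counts, and all 9 had a row among its 19504 named genes. MYCN had no count in any library, so 8 of the 9 passed the filter on low counts and were tested together with all other expressed genes, 12392 in total.

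The ends of mRNAs were counted by sequencing in a pair of human cell lines of acute myeloid leukaemia (AML). The groups were MV4-11 with 5 nM AC220, MV4-11 with DMSO, OCI-AML3 with 5 nM AC220 and OCI-AML3 with DMSO, each exposed for 24 h and each with 3 libraries. AC220 (quizartinib) inhibits the receptor tyrosine kinase FLT3, and DMSO is its solvent, used as the control. MV4-11 is known to carry an internal tandem duplication of FLT3 and a KMT2A fusion, whereas OCI-AML3 is known for a mutated NPM1 without a FLT3 duplication, so each kind of AML is represented by 1 line. Nothing in the labels ties the replicates to separate cultures, so the p-values rest on a spread between libraries that may be technical.

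MYC and MYCN activate transcription as heterodimers with MAX, bound to the E-box motif CACGTG. MXD1, MXI1, MXD3, MXD4 and MNT compete for the same partner and the same motif and recruit the SIN3 histone deacetylase corepressor, and MGA carries MAX into a variant Polycomb complex. In blood cells, MYC is known to drive growth and ribosome production, while several MXD proteins are known to rise as cells leave the cycle and mature. Levels below are counts scaled to a common library size (CPM) after TMM normalization of the libraries. The kit reads the end of each transcript, so that counts do not grow with length, but these levels are RNA, and none of the proteins was measured.

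Of the promoter windows that RefSeq (GRCh38.p14) gives for the family, 250 bases before each start were searched on both strands. The motifs were the E-box, which the family itself binds, E2F sites (TTTGGCGC and TTTCGCGC) and a forkhead site (GTAAACA). Windows of 8 members were searched, 13 starts in all, and no window of MYC was among them. The E-box lay in 2 of the 13, against 6.34% of 35116 windows of all genes. These 2 belong to MXD4, the member with the largest change, and to MNT, a member that did not pass the test, and are shown because the same letters stand before both. The capitals mark the E-box.
MXD4, chr4:2262110-2262359, minus strand: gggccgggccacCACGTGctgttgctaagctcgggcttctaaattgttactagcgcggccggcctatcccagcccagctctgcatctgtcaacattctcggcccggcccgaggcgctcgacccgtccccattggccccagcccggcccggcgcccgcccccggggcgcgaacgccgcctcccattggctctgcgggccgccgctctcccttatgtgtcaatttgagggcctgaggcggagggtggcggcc
MNT, chr17:2401061-2401310, minus strand: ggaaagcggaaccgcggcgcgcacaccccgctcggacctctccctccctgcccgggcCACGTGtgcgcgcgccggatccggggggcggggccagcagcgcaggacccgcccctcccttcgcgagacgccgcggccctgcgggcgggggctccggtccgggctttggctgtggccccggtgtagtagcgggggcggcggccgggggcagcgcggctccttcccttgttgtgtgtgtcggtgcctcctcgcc
The E-box begins 238 bases before the start in MXD4 and 193 bases before it in MNT. The other motifs had hits as well, in windows not shown. Both E2F forms lay in MYCN and TTTGGCGC in a window of MGA, against 0.55% (TTTGGCGC) and 0.439% (TTTCGCGC) of all windows. The forkhead site lay in a window of MXI1, against 2.98%. The E-box was picked for display after the windows had been read, and its presence is a description of the letters only.

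Total counts per library lay between 10877198 and 16918761. DUSP6, a feedback phosphatase of the ERK pathway downstream of FLT3, had 10.4, 7.45 and 7.63 CPM in the 3 MV4-11 AC220 libraries, against 133, 135 and 136 CPM in MV4-11 DMSO. The OCI-AML3 values were 22.4 to 28.0 CPM under AC220 and 15.0 to 19.3 CPM under DMSO. FLT3 itself had 516, 306 and 269 CPM in MV4-11 AC220 and 193 to 238 CPM in MV4-11 DMSO. The 12 myeloid markers checked summed to 1095 to 1193 CPM in MV4-11 AC220, 682 to 716 CPM in MV4-11 DMSO, 1143 to 1273 CPM in OCI-AML3 AC220 and 1142 to 1206 CPM in OCI-AML3 DMSO. The erythroid and megakaryocyte markers summed to at most 3.27 CPM in any library and HBA1, HBB, CD3E and EPCAM were at 0 throughout. The epithelial and stromal markers summed to 13.6 to 21.3 CPM in MV4-11 AC220, 11.1 to 11.4 CPM in MV4-11 DMSO, 5.59 to 8.77 CPM in OCI-AML3 AC220 and 3.65 to 5.71 CPM in OCI-AML3 DMSO. KRT8, an epithelial keratin, had 11.9 to 18.4 CPM in MV4-11 AC220 and 10.4 to 10.8 CPM in MV4-11 DMSO. The lymphoid markers summed to 27.7 to 34.0 CPM in MV4-11 AC220, against 13.8 to 14.7 CPM in MV4-11 DMSO. The part of these other markers in the results was not tested. In this bulk RNA, fewer cells of a kind and less RNA per cell cannot be told apart.

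In MV4-11, AC220 changed the antagonists of MYC in opposite directions. MXD4 rose 4.19-fold, MGA rose 1.43-fold, and MXI1 and MXD1 fell 1.84-fold and 1.63-fold. The MXD3 row fell 1.65-fold, but its counts ran parallel to those of an overlapping gene. In all, 5 of 8 tested members passed edgeR's quasi-likelihood test at an adjusted p under 0.05, 2 higher and 3 lower, or 4 of 7 without MXD3. Of all genes tested, 58.3% passed (31.5% higher, 26.9% lower), so the share of members was near the background. In OCI-AML3 no member passed edgeR's quasi-likelihood test, where 3.95% of all genes did (3.44% higher, 0.508% lower). The 489 genes called there were 426 higher and 63 lower, and with median-ratio scaling 363 higher and 126 lower. At an unadjusted p under 0.05, 6 of 8 members would have passed there, where 20.8% of all genes did. DESeq2 called 3 members in OCI-AML3, where it called 8.39% of all genes, and limma-voom called 0, where it called 4.59%.

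**Figure D1:**
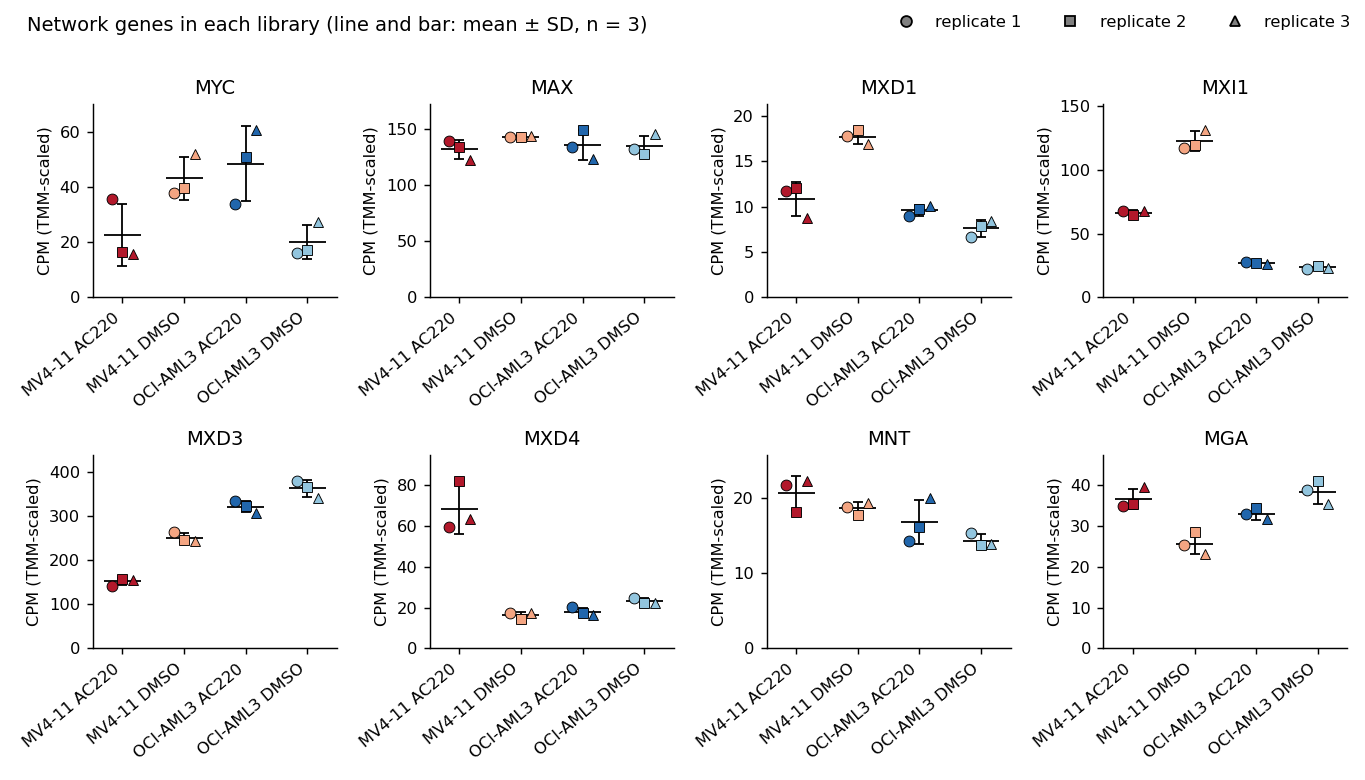
Level of each network gene in every library, in CPM on a linear axis that starts at 0, with the line and bar giving mean ± SD of 3 libraries per group and the marker shape giving the replicate number. MXD4 stood at 59.8 to 82.3 CPM in MV4-11 AC220 and at or below 24.8 CPM in all other libraries, and the MYC values of a group lay far apart.

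MYC, the activator of the network, had 35.9, 16.6 and 15.7 CPM in the MV4-11 AC220 libraries, against 37.8, 39.7 and 52.3 CPM in MV4-11 DMSO. The groups did not overlap, but replicate 1 under AC220 lay close to the lowest DMSO library and the other two lay far below it. The means were 22.7 ± 11.4 CPM under AC220 and 43.2 ± 7.87 CPM under DMSO (SD, n = 3 each). The log2 fold change was -0.91 with a standard error (SE) of 0.371. Its 95% interval was -1.64 to -0.18, by normal quantiles here and below, which makes it somewhat too narrow. The change did not pass edgeR's quasi-likelihood test (adjusted p = 0.0645). Without MV4-11 AC220 replicate 1 it was -1.42 (adjusted p = 0.00808 by the same edgeR test). DESeq2 gave -0.92 (adjusted p = 0.0268), and over all 20 alternatives the adjusted p ran from 0.00808 to 0.181. The call for MYC thus turned on 1 library and on the test used.

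In OCI-AML3, MYC lay on the other side. It had 33.8, 51.1 and 61.0 CPM in the AC220 libraries, against 16.2, 17.1 and 27.3 CPM in the DMSO libraries, and every AC220 library was above every DMSO library. The means were 48.6 ± 13.7 CPM under AC220 and 20.2 ± 6.15 CPM under DMSO (SD, n = 3 each). Its log2 fold change was 1.27 (SE 0.373, 95% interval 0.54 to 2.00) and did not pass edgeR's quasi-likelihood test (adjusted p = 0.0979). The adjusted p ran from 0.0211 with DESeq2 to 0.344 over the alternatives, and without MV4-11 AC220 replicate 1 it was 0.0337 by the edgeR test. That library is in neither OCI-AML3 group. It enters through the filter, the scaling, the shared estimate of spread and the adjustment, which then covered 12530 genes.

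The difference between the MYC responses, MV4-11 minus OCI-AML3, was -2.18 on the log2 scale (SE 0.526) and passed edgeR's quasi-likelihood test of the interaction (adjusted p = 0.00866). Across the alternatives it lay between -2.69 and -1.99 and the adjusted p did not exceed 0.0253. Under DMSO, MYC was higher in MV4-11 than in OCI-AML3 by 1.10 (log2, SE 0.372, adjusted p = 0.0287, edgeR). This last call was lost when any of 3 single DMSO libraries was left out: the log2 fold change was 0.94 (adjusted p = 0.0890) without MV4-11 DMSO replicate 3, 0.96 (0.0926) without OCI-AML3 DMSO replicate 1 and 1.01 (0.0838) without OCI-AML3 DMSO replicate 2. By mean level the order was OCI-AML3 AC220, MV4-11 DMSO, MV4-11 AC220 and OCI-AML3 DMSO, in which the libraries of the 2 highest groups overlapped each other, and so did those of the 2 lowest.

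MYC was among the most variable genes between replicates. Its SD within groups was 0.463 on the log2 scale, larger than that of 98.3% of 9995 genes with a mean count of at least 50, whose median SD was 0.137. The gap between the highest and the lowest library of a group was 1.18 in MV4-11 AC220, 0.466 in MV4-11 DMSO, 0.847 in OCI-AML3 AC220 and 0.748 in OCI-AML3 DMSO (log2). With at least 173 counts for MYC in each library, this spread was far above counting error. The other tested members had an SD of 0.0657 to 0.166, from MXI1 with the smallest to MXD4 with the largest.

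The deviations of MYC from its group means were shared with other genes. The first principal component of the deviations of the other 9994 genes held 30.6% of their variance. The deviations were not scaled, so that variable genes weigh most, and the sign of the component was set to follow MYC. With this sign, MYC lay on the same side of 0 as the component in 10 of 12 libraries, with a Pearson r of 0.971. The other members had r with it between -0.591 (MXD4) and 0.568 (MXD1), and the MXD3 row had -0.913. Of the 9994 single genes, 242 had an r with MYC itself over 0.9 and 101 under -0.9, together 3.43%. These values are a description: the 12 deviations come from 4 groups of 3, which leaves 8 free values, and the points share their libraries. MV4-11 AC220 replicate 1 stood apart most often, with 57 genes at least 2-fold above and 16 at least 2-fold below both other libraries of its group, or 0.730% of the 9995, and MYC was among them. In the other 11 libraries this share was 0.0900% to 0.460%.

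**Figure D2:**
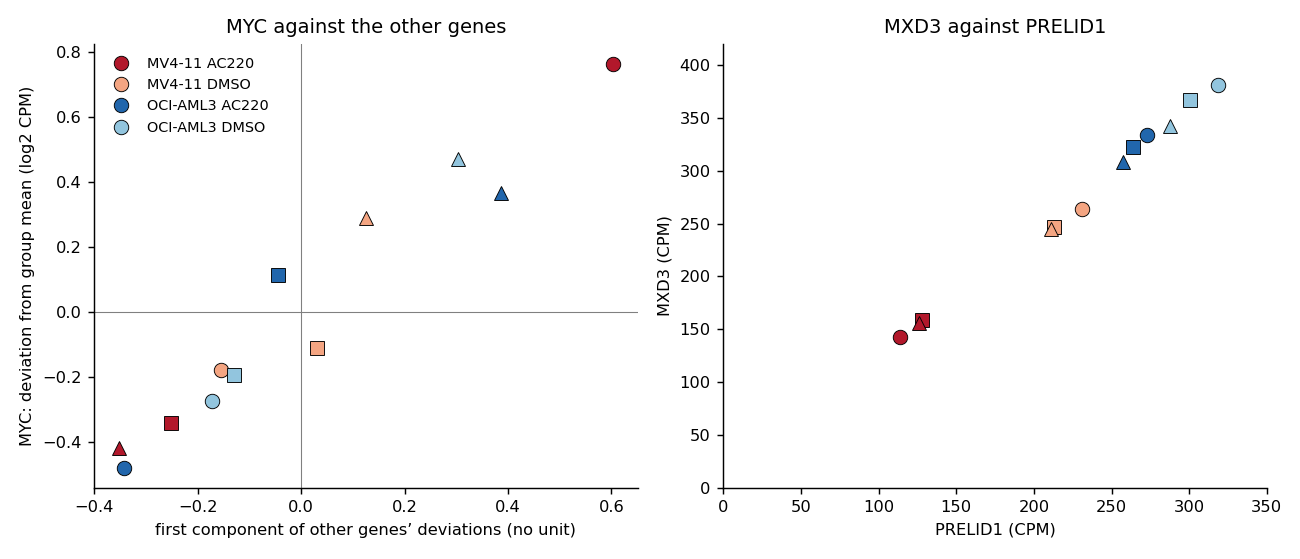
Left, deviation of MYC from its group mean (log2 CPM) against the first component of the deviations of the other genes (no unit) in 12 libraries, coloured by group with the marker shape giving the replicate; the points run along a diagonal with MV4-11 AC220 replicate 1 at its upper end. Right, MXD3 against PRELID1 (both in CPM, axes from 0) in the same libraries; the points lie near 1 line through the origin, at a ratio of 1.14 to 1.26.

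The genes whose profile over the 12 libraries was most like that of MYC were RSPH10B2, NUP37, CCZ1B, DTD1 and BORA. Likeness was measured as the root mean square difference of centred log2 CPM, which was 0.103, 0.192, 0.194, 0.228 and 0.235 in that order, over 9994 genes compared. RSPH10B2 had 51.2, 24.5 and 22.6 CPM in MV4-11 AC220, against 62.2, 68.8 and 75.8 CPM in MV4-11 DMSO. In OCI-AML3 it had 47.5, 73.9 and 88.1 CPM under AC220, against 22.5, 23.6 and 36.2 CPM under DMSO. Each group showed the same order of libraries as for MYC, which the choice by likeness over these libraries favours. RSPH10B2 and CCZ1B have near-identical copies, RSPH10B and CCZ1, with which they may share reads, and their own levels are uncertain.

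MAX, the shared partner of the network proteins, had similar means in the 4 groups. It had 140, 134 and 123 CPM in MV4-11 AC220, against 143, 143 and 144 CPM in MV4-11 DMSO, and every AC220 library lay below every DMSO library. In OCI-AML3 it had 134, 150 and 124 CPM under AC220, against 132, 128 and 145 CPM under DMSO. The log2 fold change for AC220 was -0.12 in MV4-11 (95% interval -0.26 to 0.03) and 0.01 in OCI-AML3 (-0.14 to 0.15), and neither passed edgeR's quasi-likelihood test (adjusted p = 0.179 and 0.975). The difference of the responses was -0.12 (-0.33 to 0.08). The value in OCI-AML3 changed sign under 6 of 20 alternatives. A fit of the MV4-11 libraries alone gave -0.17 and passed (adjusted p = 0.0394), among alternatives that ran from -0.17 to -0.02.

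MXD4, an antagonist of MYC that recruits SIN3, had the largest response of the family. It had 59.8, 82.3 and 63.3 CPM in MV4-11 AC220, against 17.2, 14.5 and 17.2 CPM in MV4-11 DMSO, so that the lowest AC220 library was well above the highest DMSO library. This was a log2 fold change of 2.07 (SE 0.116, adjusted p = 2.37e-15, edgeR quasi-likelihood). The OCI-AML3 values were 20.1, 17.2 and 16.5 CPM under AC220, against 24.8, 22.3 and 22.5 CPM under DMSO, a log2 fold change of -0.38 that did not pass (SE 0.122, adjusted p = 0.0703, edgeR). Every OCI-AML3 AC220 library lay below every DMSO library. With DESeq2 the value in OCI-AML3 was -0.40 and passed (adjusted p = 0.0451), within a range of 0.0242 to 0.311 over the alternatives. The difference of the responses was 2.44 (SE 0.168, adjusted p = 5.52e-13, edgeR).

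The genes most like MXD4 over the libraries were ODF3B, PSAP, DBI, WDR91 and SIDT2, at root mean square differences of 0.199, 0.205, 0.206, 0.211 and 0.229. PSAP encodes prosaposin, the precursor of the lysosomal saposins, and DBI encodes an acyl-CoA binding protein. PSAP had 282, 318 and 344 CPM in MV4-11 AC220, against 89.8, 94.7 and 93.9 CPM in MV4-11 DMSO. It had 106 to 116 CPM in OCI-AML3 AC220, against 110 to 133 CPM in OCI-AML3 DMSO. The genes chosen for this likeness thus included some of far higher and of far lower level than MXD4. ODF3B had 9.50 to 10.6 CPM in MV4-11 AC220, against 1.80 to 2.19 CPM in MV4-11 DMSO.

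MXI1 (also known as MXD2), another SIN3-recruiting antagonist, fell. It had 67.4, 64.2 and 67.7 CPM in MV4-11 AC220, against 117, 119 and 131 CPM in MV4-11 DMSO, with a wide gap between the groups. This was a log2 fold change of -0.88 (SE 0.0752, adjusted p = 3.24e-11, edgeR quasi-likelihood). In OCI-AML3 it had 27.9, 27.2 and 26.1 CPM under AC220, against 22.5, 24.8 and 23.2 CPM under DMSO. These groups did not overlap either, but the log2 fold change of 0.20 did not pass (SE 0.0864, adjusted p = 0.168, edgeR). The difference of the responses was -1.09 (SE 0.114, adjusted p = 5.17e-09, edgeR). RefSeq gives MXI1 3 starts, and reads of transcript ends do not tell them apart.

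MXD1, the antagonist best known from myeloid maturation, fell as well. It had 11.8, 12.1 and 8.72 CPM in MV4-11 AC220, against 17.7, 18.5 and 16.9 CPM in MV4-11 DMSO (log2 fold change -0.70, SE 0.142, adjusted p = 0.000105, edgeR quasi-likelihood). In OCI-AML3 it had 8.93, 9.79 and 10.1 CPM under AC220, against 6.61, 7.83 and 8.39 CPM under DMSO, and the log2 fold change of 0.34 did not pass (SE 0.155, adjusted p = 0.211, edgeR). The difference was -1.04 (SE 0.210, adjusted p = 0.000164, edgeR). An exon of MXD1 overlaps SNRNP27 on the same strand in the reference annotation, but the counts of these genes did not run together, with a ratio between 0.0572 and 0.220. MAX, MXI1, MNT and MGA also share exon bases with an annotated transcript on the opposite strand and MXD4 with a microRNA gene, for which no counts were analysed here. Beside MXD1, the myeloid markers as a list moved the other way: 9 of 12 rose, CD14 fell and 2 did not pass in MV4-11, where 31.5% of all genes rose and 26.9% fell, with a median log2 fold change of 0.94 against 0.07 over all genes tested. CD14 was at or near 0 in every MV4-11 library.

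MXD3, an antagonist known for its link to proliferating cells, had the highest counts of the family, but these could not be told apart from those of a neighbour. Its exons overlap PRELID1 on the opposite strand and RAB24 on the same strand, and the strand setting of the counting is not given in the sources used here. MXD3 had 143, 159 and 156 CPM in MV4-11 AC220, against 264, 247 and 245 CPM in MV4-11 DMSO. PRELID1, which encodes a mitochondrial lipid carrier, had 114, 128 and 126 CPM in MV4-11 AC220, against 231, 213 and 211 CPM in MV4-11 DMSO. The ratio of MXD3 to PRELID1 counts lay between 1.14 and 1.26 in all 12 libraries, while the ratio to RAB24 lay between 5.25 and 12.2.

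The log2 fold changes of both rows were accordingly close. AC220 in MV4-11 gave -0.72 for MXD3 (SE 0.0640, adjusted p = 6.86e-11, edgeR quasi-likelihood) and -0.83 for PRELID1 (SE 0.0656, adjusted p = 5.68e-12). In OCI-AML3, MXD3 had 334, 323 and 309 CPM under AC220, against 381, 367 and 342 CPM under DMSO, with log2 fold changes of -0.18 for MXD3 and -0.19 for PRELID1 (adjusted p = 0.0980 and 0.0770, edgeR). The difference of the responses was -0.55 for MXD3 (adjusted p = 9.01e-06) and -0.64 for PRELID1 (adjusted p = 1.12e-06, edgeR). MXD3 is therefore left out of the make-up of the network given further on, and its level and direction stand as those of a row that may hold reads of both genes.

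MNT, a broadly expressed antagonist of MYC, did not pass in response to AC220 in either line. It had 21.7, 18.2 and 22.3 CPM in MV4-11 AC220, against 18.8, 17.8 and 19.4 CPM in MV4-11 DMSO, and the groups overlapped. The OCI-AML3 values were 14.3, 16.1 and 20.1 CPM under AC220, against 15.3, 13.8 and 13.9 CPM under DMSO, again with overlap. The log2 fold change was 0.16 in MV4-11 (95% interval -0.09 to 0.40) and 0.24 in OCI-AML3 (-0.02 to 0.49), with adjusted p = 0.291 and 0.306 by edgeR's quasi-likelihood test. The difference of -0.08 had an interval of -0.43 to 0.27, and changed sign under 3 of 19 alternatives.

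MGA, the scaffold of the Polycomb complex PRC1.6, rose in MV4-11. It had 34.9, 35.5 and 39.5 CPM in MV4-11 AC220, against 25.3, 28.4 and 23.2 CPM in MV4-11 DMSO (log2 fold change 0.51, SE 0.0984, adjusted p = 5.51e-05, edgeR quasi-likelihood). In OCI-AML3 it had 32.9, 34.5 and 31.6 CPM under AC220, against 38.9, 41.1 and 35.3 CPM under DMSO. The groups did not overlap in either line, and the log2 fold change in OCI-AML3 of -0.22 did not pass (SE 0.0969, adjusted p = 0.194, edgeR). The difference of the responses was 0.73 (SE 0.138, adjusted p = 7.09e-05, edgeR).

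MYCN, the neural homologue of MYC, had 0 counts in all 12 libraries. A count of 0 allows up to 3 counts per library, or 0.174 to 0.279 CPM depending on depth, counting error only. No fold change is given for it.

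**Figure D3:**
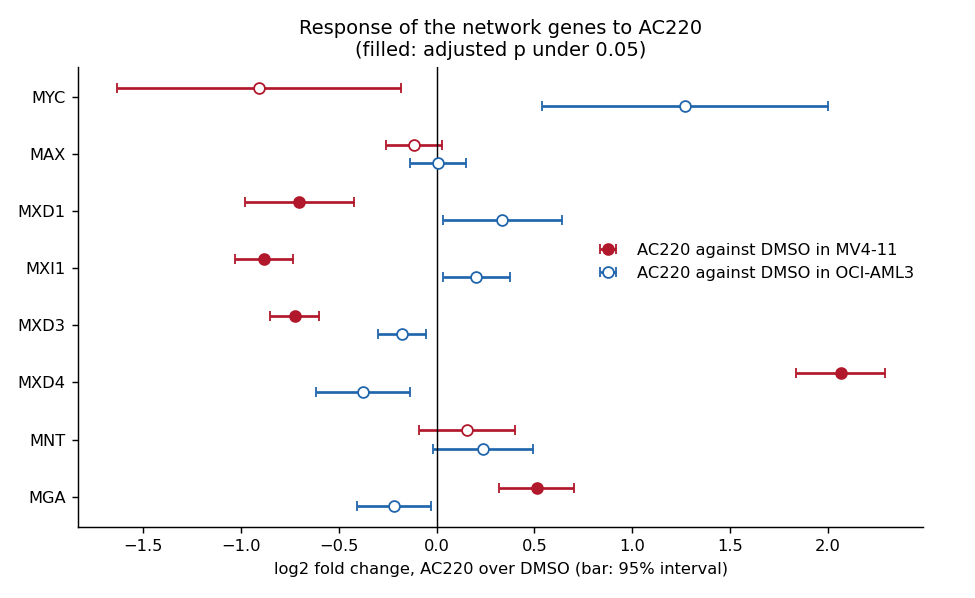
Log2 fold change of AC220 over DMSO for the 8 tested genes in MV4-11 (red) and OCI-AML3 (blue), with bars giving the 95% interval and filled points where the adjusted p was under 0.05. MYC, MXD1, MXI1, MXD4 and MGA had estimates of opposite sign in the lines, as did MAX with -0.12 in MV4-11 and 0.01 in OCI-AML3. MXD4 in MV4-11 lay farthest from 0 at 2.07.

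As a test of the lines against each other, the difference of the responses passed for 6 of 8 members, 2 higher and 4 lower in MV4-11, or 5 of 7 without MXD3. Over all genes 46.7% passed (23% higher, 23.7% lower), and 52.8% had an unadjusted p under 0.05, as the same 6 members did. For MYC, MXD1, MXI1, MXD4 and MGA, all 3 AC220 libraries lay beyond all 3 DMSO libraries in both lines, and in opposite directions in the lines, as they did for 8.16% of all genes. Non-overlap of the libraries held for 7 of 8 members in MV4-11, where it held for 62.4% of all genes, and for 6 of 8 in OCI-AML3, where it held for 23.9%; without MXD3 these counts were 6 of 7 and 5 of 7.

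Under DMSO the lines themselves differed in most members. MXI1 was 5.21-fold higher in MV4-11 than in OCI-AML3 (log2 fold change 2.38, SE 0.0814, adjusted p = 1.09e-20, edgeR quasi-likelihood), MXD1 2.32-fold higher (adjusted p = 2.13e-08) and MNT 1.30-fold higher (adjusted p = 0.00991). MGA was 1.50-fold lower (adjusted p = 6.25e-06) and MXD4 1.42-fold lower (adjusted p = 0.000545) in MV4-11. With MYC and the MXD3 row, 7 of 8 members passed, 4 higher and 3 lower in MV4-11, against 65.5% of all genes (32.1% higher, 33.4% lower). At an unadjusted p under 0.05 it was 7 of 8 against 68% of all genes, and the libraries of the lines did not overlap for 7 of 8 against 71.9%. MAX did not pass, at 0.08 with a 95% interval of -0.06 to 0.23 (adjusted p = 0.320). The MGA libraries of MV4-11 AC220, at 34.9 to 39.5 CPM, overlapped those of OCI-AML3 DMSO, at 35.3 to 41.1 CPM.

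Summed over the 7 members other than MXD3 and MYCN, the network transcripts in MV4-11 had 371, 362 and 340 CPM under AC220, against 376, 381 and 404 CPM under DMSO. Every AC220 sum lay below every DMSO sum. Within this sum, MXI1 made up 17.7% to 19.9% under AC220, against 31.0% to 32.5% under DMSO. MXD4 made up 16.1% to 22.7% under AC220, against 3.8% to 4.6% under DMSO. The ratio of MXD4 to MXI1 was 0.887, 1.28 and 0.934 in MV4-11 AC220, against 0.148, 0.121 and 0.131 in MV4-11 DMSO. In OCI-AML3 the ratio was 0.722, 0.633 and 0.631 under AC220, against 1.10, 0.902 and 0.969 under DMSO.

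The 5 antagonists MXD1, MXI1, MXD4, MNT and MGA together had 196, 212 and 202 CPM in MV4-11 AC220, against 196, 199 and 208 CPM in MV4-11 DMSO. These sums overlapped. Relative to MYC, it stood at 5.45, 12.8 and 12.8 in MV4-11 AC220, against 5.18, 5.01 and 3.98 in MV4-11 DMSO. In OCI-AML3 this ratio was 3.08, 2.05 and 1.71 under AC220, against 6.68, 6.42 and 3.79 under DMSO. The antagonist sum in OCI-AML3 was 104 to 105 CPM under AC220, against 103 to 110 CPM under DMSO, so that the ratio moved with MYC and carries its spread between replicates.

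**Figure D4:**
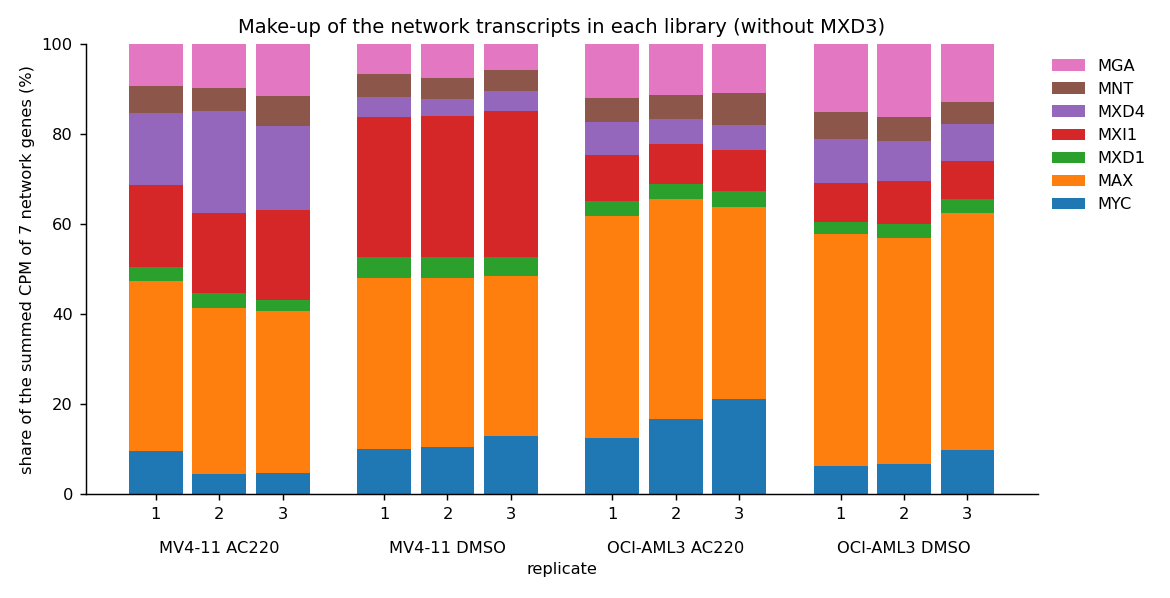
Share of each gene in the summed CPM of 7 network genes, in percent, for every library, with replicates side by side within a group. The MXD4 share was 16.1% to 22.7% in MV4-11 AC220 and at most 9.7% elsewhere, and the MXI1 share was 31.0% to 32.5% in MV4-11 DMSO.

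The other genes of the wider network, none of them counted among the 9, are MLX-linked factors and MYCL. MLX and the glucose-sensing factors MLXIP (MondoA) and MLXIPL (ChREBP) form a parallel arm, and MYCL is another MYC paralogue. All 4 passed in MV4-11, 2 in each direction, where 58.3% of all genes passed, with a median log2 fold change of -0.01 against 0.07 over all genes tested. None passed in OCI-AML3, where 3.95% of all genes did. MLXIP had 85.6, 102 and 114 CPM in MV4-11 AC220, against 45.8, 47.4 and 46.7 CPM in MV4-11 DMSO (log2 fold change 1.10, SE 0.0928, adjusted p = 2.40e-11, edgeR quasi-likelihood). MLX had 17.6, 21.2 and 21.3 CPM in MV4-11 AC220, against 35.7, 38.6 and 35.9 CPM in MV4-11 DMSO (-0.88, SE 0.0949, adjusted p = 4.08e-09, edgeR). MLXIPL was low, at 0.760, 1.21 and 0.363 CPM in MV4-11 AC220, against 4.47, 4.94 and 5.40 CPM in MV4-11 DMSO (-2.66, adjusted p = 3.43e-10). MYCL was low too, at 3.95, 3.72 and 6.54 CPM in MV4-11 AC220, against 1.97, 3.27 and 2.64 CPM in MV4-11 DMSO (0.85, adjusted p = 0.00316).

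Genes for proteins that act with MYC were followed as a list. In MV4-11, 10 of 17 coactivators and cofactors fell (58.8%, against 26.9% of all genes), 4 rose (23.5%, against 31.5%) and 3 did not pass, at a median log2 fold change of -0.26. RUVBL1, an ATPase of chromatin remodelling complexes, had 59.8, 60.1 and 43.4 CPM in MV4-11 AC220, against 95.6, 93.7 and 101 CPM in MV4-11 DMSO (log2 fold change -0.83). ACTL6A, an actin-like remodelling subunit (-0.91), WDR5, which holds MYC on chromatin (-0.73), and EP400, an ATPase of the TIP60 complex (-0.59), also fell. The 4 that rose were the acetyltransferase KAT5 (0.37), the remodelling factor BPTF (0.22), the elongation kinase CDK9 (0.72) and ZBTB17 (0.37), which is also called MIZ1 and brings MYC to genes it represses. None of the 17 passed in OCI-AML3, where 3.95% of all genes did.

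Of 17 genes that set the stability of the MYC protein, 11 fell (64.7%, against 26.9% of all genes), 4 rose (23.5%, against 31.5%) and 2 did not pass in MV4-11, at a median of -0.37. The mitotic kinase PLK1 had 16.6, 20.6 and 14.0 CPM in MV4-11 AC220, against 152, 146 and 142 CPM in MV4-11 DMSO (log2 fold change -3.10, SE 0.0997, adjusted p = 5.08e-21, edgeR quasi-likelihood). AURKA, a kinase that shields MYC family proteins from degradation (-2.36), and CIP2A, an inhibitor of the phosphatase PP2A (-2.47), fell with it, as did the deubiquitinase USP37 (-0.74). PLK1 and AURKA are also genes of mitosis, and these list values do not separate that role from the other. FBXW7, the ubiquitin ligase subunit that marks MYC for degradation, had 83.9, 90.9 and 97.8 CPM in MV4-11 AC220, against 73.5, 69.1 and 67.3 CPM in MV4-11 DMSO (0.38, adjusted p = 0.000216). The PP2A subunit PPP2R5A (0.54) and the ligase component TRPC4AP (0.25) rose as well. None of the 17 passed in OCI-AML3, where 3.95% of all genes did.

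The SIN3 corepressor, which the MXD proteins recruit, and the PRC1.6 complex of MGA were followed as lists as well. In MV4-11, 6 of 15 SIN3 genes fell (40%, against 26.9% of all genes) and 2 rose (13.3%, against 31.5%), at a median log2 fold change of -0.12. The histone chaperone RBBP7 (-0.67), the deacetylase HDAC2 (-0.47) and SAP30 (-0.98) fell, while the paralogues ARID4A (0.33) and ARID4B (0.26) rose. Of the 12 partners of MGA in PRC1.6, 5 fell (41.7%, against 26.9% of all genes) and none rose, at a median of -0.22. TFDP1, the dimer partner of E2F factors, had 35.4, 26.3 and 25.6 CPM in MV4-11 AC220, against 69.7, 68.9 and 75.4 CPM in MV4-11 DMSO (-1.29), and CBX3 (heterochromatin protein 1 gamma) fell by 0.84 on the log2 scale. MGA rose, while 5 of these 12 partners fell and 7 did not pass. HDAC1 and HDAC2 stand in both lists, and WDR5 in the lists of PRC1.6 and of coactivators. No gene of the SIN3 and PRC1.6 lists passed in OCI-AML3, where 3.95% of all genes did.

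The genes known to be activated by MYC fell together in MV4-11. Of 33 tested, 30 fell (90.9%, against 26.9% of all genes), none rose and 3 (PRDX3, IMPDH2 and TFRC) did not pass, at a median log2 fold change of -0.76 against 0.07 over all genes tested. LDHA, which makes lactate, had 193, 217 and 199 CPM in MV4-11 AC220, against 638, 632 and 666 CPM in MV4-11 DMSO (log2 fold change -1.67). The lactate transporter SLC16A1 (-1.33), the mitochondrial serine enzyme SHMT2 (-1.28) and the nucleolar protein NOP56 (-0.99) also fell. In OCI-AML3 2 of 33 rose, ODC1 and HSPE1 (6.06%, against 3.44% of all genes). FBL fell there (3.03%, against 0.508%), and the median was -0.02. The difference between the lines passed for 26 of the 33, all more negative in MV4-11 (78.8%, against 23.7% of all genes).

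The summed level of these genes was 6980, 7370 and 7376 CPM in MV4-11 AC220, against 11465, 11178 and 11104 CPM in MV4-11 DMSO. The lowest sum was in AC220 replicate 1, the library with the highest MYC of its group. The most abundant genes weigh most in such a sum, so its order need not be that of the listed genes. In OCI-AML3 the sum was 10961, 11112 and 10857 CPM under AC220, against 11599, 11315 and 11031 CPM under DMSO. Single genes differed in their order in MV4-11 AC220. FBL, an abundant one, had 809, 1003 and 1029 CPM, lowest in replicate 1. Of the 4 genes named above by smallest adjusted p, LDHA (193, 217 and 199 CPM), SHMT2 (107, 128 and 119 CPM) and NOP56 (145, 161 and 151 CPM) were also lowest there. SLC16A1 (47, 41 and 50 CPM) was highest in replicate 3. Others were highest in replicate 1, the library with the highest MYC. Among them were the chaperonin HSPE1 (112, 85.2 and 79.3 CPM), ODC1 (90.1, 72.2 and 79.6 CPM) and PRDX3 (112.5, 74.2 and 63.8 CPM), which did not pass in MV4-11. FBL, HSPE1, ODC1 and PRDX3 were picked after their values were seen, and a relation of the listed genes to MYC among replicates was not tested.

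The genes known to be repressed by MYC did not move one way. In MV4-11, 6 of 13 rose (46.2%, against 31.5% of all genes), 5 fell (38.5%, against 26.9%) and 2 did not pass, at a median of 0.25. CLU, a secreted chaperone, had 12.4, 13.4 and 15.5 CPM in MV4-11 AC220, against 3.31, 2.50 and 2.96 CPM in MV4-11 DMSO (log2 fold change 2.23), and the iron store FTH1 rose by 0.55. NDRG1, a stress-responsive gene, had 23.2, 19.3 and 24.1 CPM in MV4-11 AC220, against 151, 157 and 170 CPM in MV4-11 DMSO (-2.84). The cell cycle inhibitor CDKN1A (-2.35), GADD45A, a gene of DNA damage (-1.30), and CEBPD, a myeloid transcription factor (-0.91), fell too. None of the 13 passed in OCI-AML3, where 3.95% of all genes did.

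**Figure D5:**
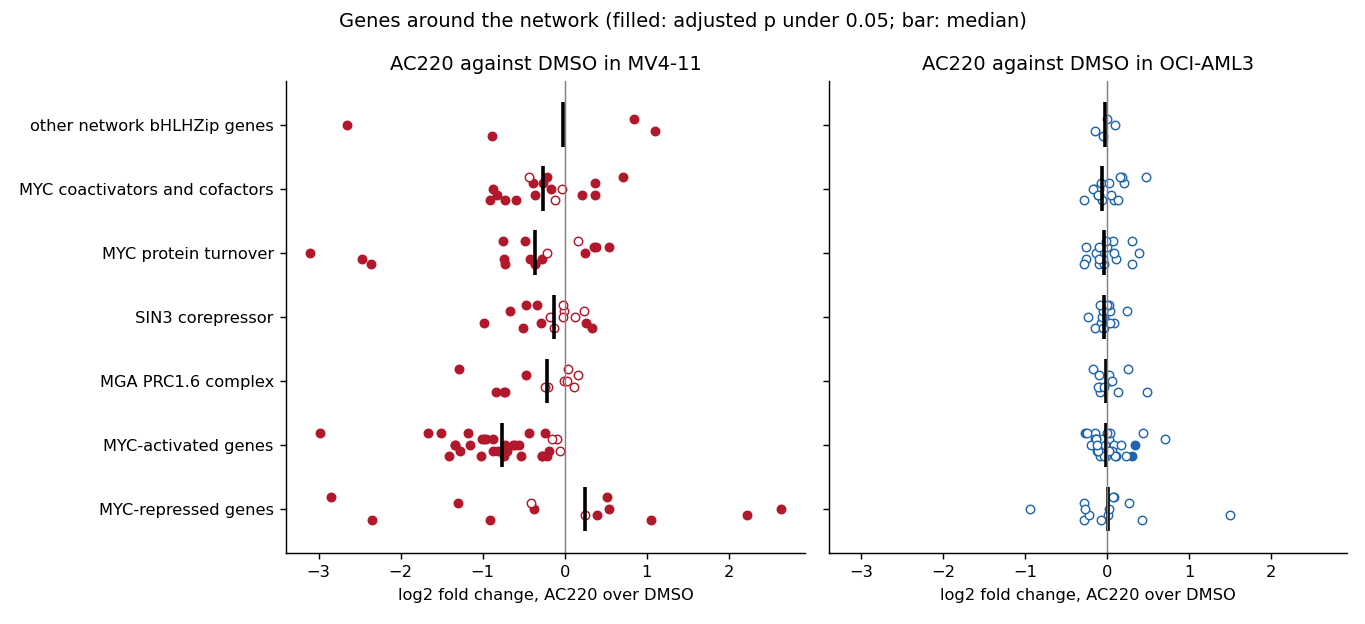
Log2 fold change of AC220 over DMSO in MV4-11 and in OCI-AML3 for each tested gene of the lists around the network, with the median of each list. The genes activated by MYC lay at a median of -0.76 in MV4-11 and -0.02 in OCI-AML3.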

How the data were processed

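Total RNA of 12 samples was sequenced with the Lexogen QuantSeq 3' mRNA kit, per the labels' protocols. Of the tools listed in the submitters' processing notes, HISAT2 2.0.4 and the featureCounts program of Subread 2.0.0 bear on the counts, and the build is hg19; strand setting and annotation are not given in the sources used here, so overlapping or near-identical genes may share reads. The authors deposited raw counts per gene, used for all results, and normalised log2 values of 11075 genes, used only as an alternative. A row without a symbol (0.00343% to 0.00503% of counts) was left out.

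Replicates were not identical (chi-square per degree of freedom 2.77 to 10.7). After filterByExpr and TMM scaling, 12392 genes were tested by the robust quasi-likelihood method of edgeR 4.0.16 in R 4.3.3 (8 residual degrees of freedom, 1 mean per group) and Benjamini-Hochberg adjustment over all of them, at 0.05. SE is the log2 fold change over the square root of F. The procedure was run on simulated counts with changes in few genes of a single group. That setting is simpler than these data, and no result here rests on it. Alternatives were median-ratio scaling, no filter and a stricter one, DESeq2 1.42.0, limma-voom (limma 3.58.1), limma on the deposited values, a replicate block, the compared libraries alone, and each library left out.

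The members, lists and motifs were chosen with earlier results of these data known. Named genes are the members, in each list the 4 with the smallest adjusted p in MV4-11 and up to 4 called against its direction, and the 5 genes most like MYC and MXD4. PRDX3, IMPDH2, TFRC, ODC1, HSPE1, FBL, PRELID1 and SNRNP27 were added after their values were seen. BOP1 was not analysed here, and some listed genes are not reported here by name.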

Additional observations from a re-analysis of the deposited data

Results flagged for a closer look

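The difference of the AC220 response between the lines, MV4-11 minus OCI-AML3, passed edgeR's quasi-likelihood test of the interaction for 6 of 8 members and for 46.7% of all genes, and this difference is what marks them for a closer look. It was 2.44 for MXD4 and 0.729 for MGA on the log2 scale, which rose in MV4-11. It was -2.18 for MYC, -1.09 for MXI1 and -1.04 for MXD1. It was -0.549 for the MXD3 row, whose counts ran parallel to PRELID1.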

How the results depend on the processing

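Of 632 fits of a member under an alternative, 604 kept their direction and their side of the threshold, 16 passed only under the alternative, 3 no longer passed and 9 changed sign. No member passed in OCI-AML3 in the fit as reported, where DESeq2 called 3 (8.39% of all genes), the fit without a filter 1 (5.01%), and fits without 1 library 0 to 3 (0.103% to 9.07%), the 3 being without MV4-11 AC220 replicate 1 (9.07%). MYC in MV4-11 passed with DESeq2 (-0.92, adjusted p = 0.0268), limma on the deposited values (-1.01, 0.0380) and limma-voom (-0.98, 0.0466), and ran from -1.42 to -0.73 when 1 library was left out. MYC in OCI-AML3 passed with DESeq2 (1.24, 0.0211) and ran from 1.08 to 1.55 without 1 library. MYC between the lines under DMSO ran from 0.94 to 1.38. MAX in OCI-AML3 (0.01 as reported) was -0.020 with DESeq2 and with median-ratio scaling, and ran from -0.068 to 0.072 without 1 library, below 0 without MV4-11 AC220 replicate 3, OCI-AML3 AC220 replicate 2 or OCI-AML3 DMSO replicate 1 or 2. The MNT difference (-0.08) was 0.0029 with the deposited values and ran from -0.18 to 0.062 without 1 library, above 0 without MV4-11 AC220 replicate 2 or OCI-AML3 AC220 replicate 3. The causes were not tested. With a replicate block, MYC was -0.89 (adjusted p = 0.102) in MV4-11, 1.28 (0.148) in OCI-AML3, -2.17 (0.0199) for the difference and 1.11 (0.0462) between the lines (edgeR), and the block changed no member's call. The deviations of same-numbered libraries from their group means correlated across genes at -0.22, -0.11 and -0.16 in MV4-11 and at 0.15, 0.06 and 0.29 in OCI-AML3. Different-numbered libraries gave -0.08 to 0.21 in MV4-11 and -0.23 to 0.12 in OCI-AML3. The lines differed in this, and the numbers were not taken to pair samples. With 3 libraries a group, a change like that of MYC is limited by the spread between replicates, not by depth.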
